A study of Mus musculus with 24 samples.

Results

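The postnatal change of quadriceps muscle in BL10 mice, from 5 days to 6 weeks of age, was examined with 6 of the 24 arrays of the series: the 3 labelled BL10 at 5 days and the 3 labelled BL10 at 6 weeks, taken by the sample labels. BL10 is the control strain of the study, with an intact dystrophin gene, and no mouse of these groups carried a treatment or transgene by the labels. Total RNA of whole quadriceps was hybridised to Affymetrix whole-genome mouse arrays, on which a probe set is a group of short probes for one transcript. The other 18 arrays hold BL10 muscle at 2 and 3 weeks and muscle of dystrophin-deficient mdx mice at all 4 ages, in groups of 3. The sample titles call the replicates biological, without naming animals, and do not give the sex.

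Between birth and adulthood a limb muscle of the mouse stops adding nuclei by fusion of myoblasts, replaces embryonic and neonatal forms of contractile and calcium-handling proteins by adult ones, and settles into fibre types. Over the same weeks the animal is weaned, the axes of thyroid hormone and glucocorticoids mature, daily rhythms set in, and growth slows as fetal growth genes, many of them imprinted, are shut down. Imprinted genes are transcribed from only the maternal or only the paternal chromosome copy, and many of them act on growth before and shortly after birth.

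Levels below are log2(intensity + 16) after quantile normalization, where 4 is the lowest possible value and stands for a normalized intensity at or below 0. Changes are 6 weeks minus 5 days on that scale, each followed by ± its standard error from limma (3 arrays per age), and called means that the Benjamini-Hochberg adjusted p lay under 0.05. Where a fold is given it is 2 raised to the size of the change, so it understates the change of dim genes. For 1 gene taken alone, an exact permutation of 3 against 3 arrays could not reach a p below 0.1. Standard errors and p-values rest on a spread pooled over all 24 arrays, not on the 6 compared alone. The median standard deviation of a gene within a BL10 group was 0.13 at 5 days and 0.17 at 6 weeks. It was 0.27 at 2 weeks and 0.29 at 3 weeks, and 0.13 to 0.27 in the mdx groups. Because the titles do not name animals, the p-values measure only the spread between samples.

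The 2 ages were far apart. Of 15000 genes tested, 3414 were higher and 2285 lower at 6 weeks, which are 22.8% and 15.2% of the genes, and the median change of all genes was 0.12. Called changes of at least 2-fold numbered 1362 higher (9.08%) and 1014 lower (6.76%). The balance of these turned with the processing: it was 1199 higher and 1210 lower with values as deposited, and 2547 higher and 3111 lower over all probe sets. At 4-fold or more the numbers were 209 higher and 202 lower. In 36.8% of all genes tested every array at 6 weeks lay above every array at 5 days, and in 25.7% every one lay below. The counts for each gene group below are to be read against these shares.

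The tissue label matched the muscle genes. Ckm, the muscle creatine kinase, read 14.05, 13.99 and 13.99 at 5 days and 14.03, 14.03 and 14.03 at 6 weeks, and the mean of 6 muscle identity genes lay between 13.57 and 13.65 at 5 days and between 13.68 and 13.70 at 6 weeks. One array stood apart: BL10 at 5 days replicate 1 had Xist, the RNA of the inactive X chromosome, at 11.65 and the Y-linked gene Eif2s3y at 4, the lowest possible value, against 5.15 or 6.58 for Xist and 9.14 or 9.34 for Eif2s3y in the other 2 arrays of that age and 4.97 to 5.43 and 9.43 to 9.70 at 6 weeks. Leaving that array out gave 4765 calls in place of 5699. A technical measure also moved with age: the difference between the 3′ and 5′ control probe sets of Gapdh lay between -0.16 and -0.09 at 5 days and between 0.23 and 0.41 at 6 weeks. The same difference for actin moved the other way, from between -0.24 and -0.08 at 5 days to between -0.31 and -0.27 at 6 weeks. The part of this measure in the results was not tested.

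**Figure D1:**
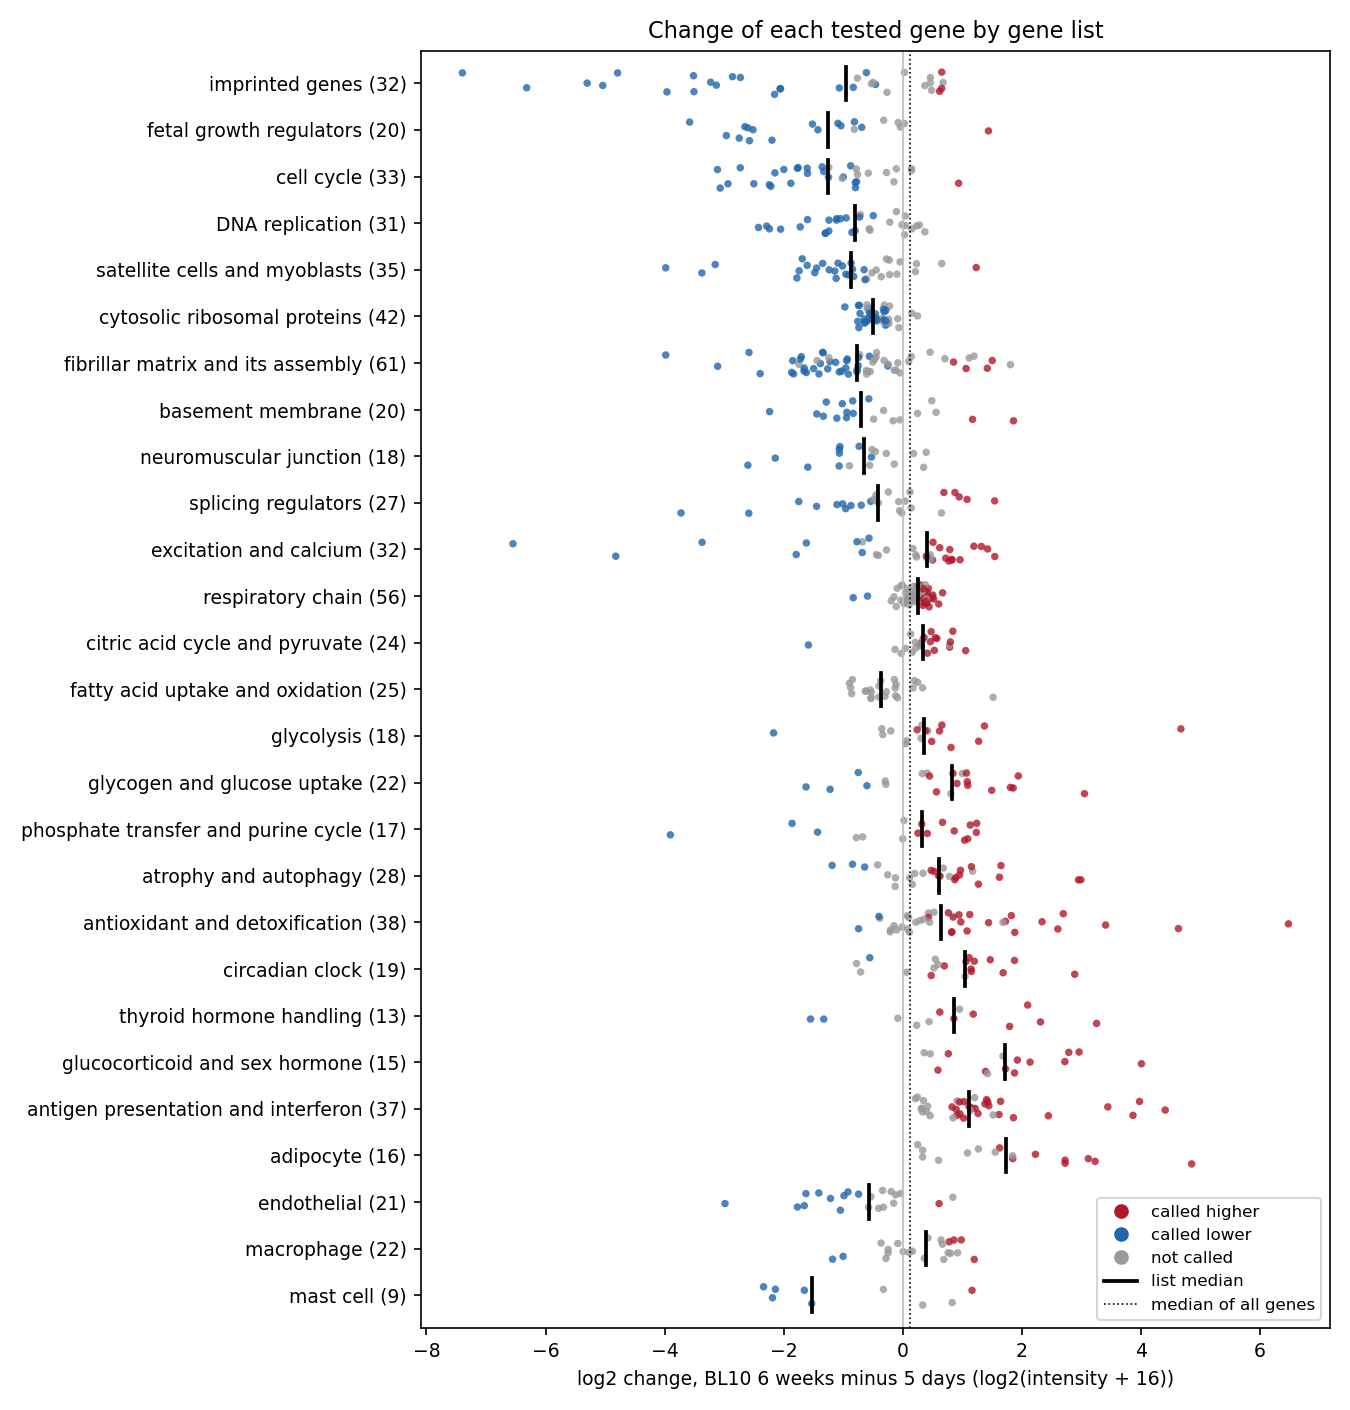
Change from 5 days to 6 weeks in BL10 quadriceps (x axis, log2 scale) of every tested gene in 27 gene lists (y axis, number tested in brackets), with points coloured by call. Black bars are list medians and the dotted line is the median of all genes, 0.12. Of the lists drawn, growth, division and matrix lists lie to the left, and hormone, clock and antigen presentation lists to the right. The lists drawn are a choice from 58. Growth and matrix lists not drawn had medians from -0.44 (insulin-like growth factor and growth hormone axis) to 0.37 (cell cycle inhibitors), with -0.02 for ribosome assembly.

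Imprinted growth genes were among the largest falls. The list of imprinted genes held 32 genes tested, of which 19 were called lower and 3 higher (median change -0.95), against a median of 0.12 over all genes. Dlk1, a paternally expressed membrane protein of the Notch ligand family that is released by immature cells, read 13.25, 13.22 and 13.41 at 5 days and 5.61, 6.45 and 5.63 at 6 weeks. Its neighbours in the same imprinted cluster are maternally expressed non-coding RNAs: Mirg (1457030_at) read 11.55, 11.37 and 11.43 at 5 days and 5.000, 5.51 and 4.90 at 6 weeks, a change of -6.32 ± 0.87 (adjusted p 1.65e-05), and Rian (1452899_at) read 11.69, 11.76 and 11.60 at 5 days and 7.22, 7.22 and 6.24 at 6 weeks, a change of -4.79 ± 0.81 (adjusted p 0.000134). For all 3 genes every array at 5 days lay several units above every array at 6 weeks. RNAs of both parental chromosomes of that cluster thus fell, and Meg3, a further maternal RNA there that was named after its values were seen, fell by 3.51 ± 0.62 (adjusted p 0.00021).

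Imprinted genes elsewhere in the genome fell too. Mest (1423294_at), a paternally expressed gene of the alpha/beta hydrolase fold family, read 12.04, 12.05 and 12.36 at 5 days and 7.46, 7.58 and 6.30 at 6 weeks, a 32.9-fold lower level (-5.04 ± 0.62, adjusted p 5.41e-06). Magel2 (1417217_at), of the Prader-Willi region, read 8.29, 8.56 and 8.61 at 5 days and 4.45, 4.72 and 4.40 at 6 weeks (-3.96 ± 0.44, adjusted p 2.05e-06), which at 6 weeks is close to the lowest possible value. Cdkn1c, a maternally expressed inhibitor of the cell cycle, read 12.86, 12.85 and 12.98 at 5 days and 9.80, 10.31 and 8.91 at 6 weeks, so an inhibitor of division fell together with growth factors such as Igf2 (-5.30 ± 0.45).

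Further imprinted genes were named after their values were seen: the zinc finger factor Plagl1 (-3.51 ± 0.50), Peg3 (-3.13 ± 0.40), Ndn (-2.73 ± 0.29), Grb10 (-2.15 ± 0.20) and Igf2r (-1.07 ± 0.22), the receptor that clears Igf2, were all called lower. The 3 imprinted genes called higher were Trappc9, Phlda2 and Mcts2, with changes of 0.62, 0.65 and 0.65, also named after the fact; that of Trappc9 was lost without any 1 array except BL10 at 5 days replicate 1 (0.50 to 0.65) and turned to -0.20 with the mean of its probe sets. Inpp5f and Commd1 had changes of -0.26 ± 0.16 and 0.03 ± 0.19 and were not called. In whole muscle, fewer cells of a type and less RNA per cell cannot be told apart, here and in every group below.

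**Figure D2:**
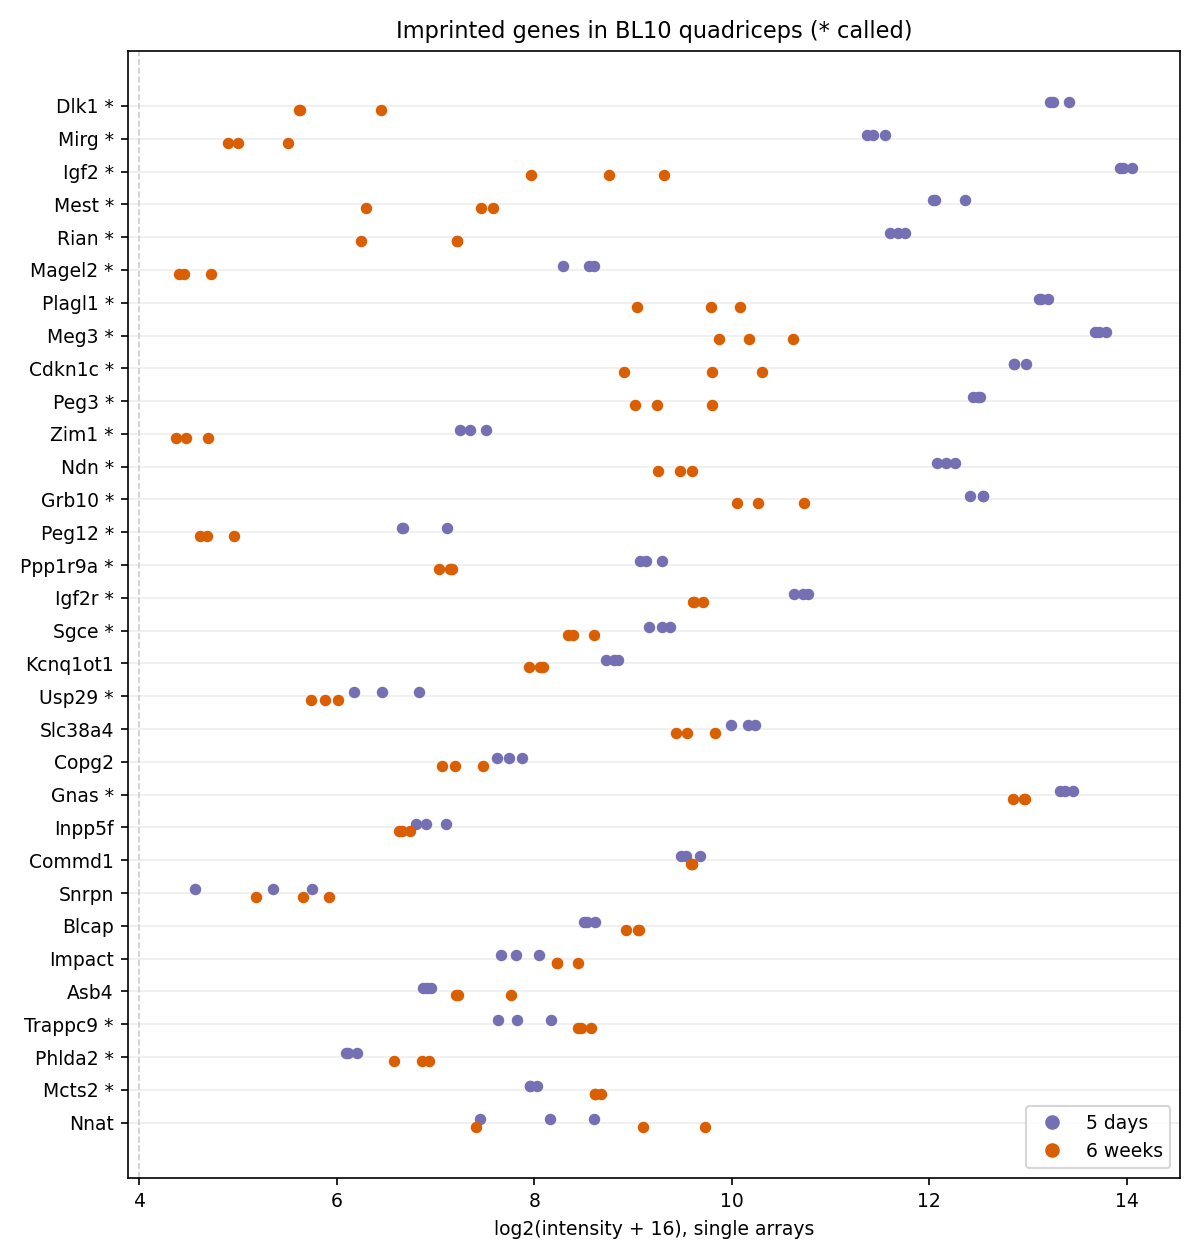
Single-array levels (x axis, log2(intensity + 16)) of the 32 imprinted genes tested (y axis, ordered by change) in BL10 quadriceps, 3 arrays at 5 days and 3 at 6 weeks; an asterisk marks a called gene and the dashed line the lowest possible value, 4. The upper genes are separated by several units between the ages, whereas the lower genes lie close together.

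Other fetal growth regulators were a list of 20 genes tested, of which 14 were called lower and 1 higher (median change -1.26). The 1 higher gene was Hmgn5, a nucleosome-binding protein (1.44 ± 0.31, named after its value was seen). The falls included those of Gpc3, a heparan sulphate proteoglycan that binds growth factors (-3.58 ± 0.38, adjusted p 9.82e-07), the heparin-binding growth factors Ptn (-2.96 ± 0.56) and Mdk (-2.60 ± 0.43), the microtubule regulator Stmn1 (-2.75 ± 0.52) and the transcription factor Sox11 (-2.65 ± 0.45). Lin28b, a fetal RNA-binding protein, had a change of -0.04 ± 0.26 and was not called. The list of the insulin-like growth factor and growth hormone axis held 24 genes tested, of which 8 were called lower and 3 higher (median change -0.44). Ghr, the growth hormone receptor, rose by 1.35 ± 0.29 (adjusted p 0.00103), while Igf1, the main postnatal ligand, changed by -0.53 ± 0.27 (adjusted p 0.135) and was not called. The binding proteins Igfbp3 and Igfbp4 fell, with changes of -1.77 ± 0.31 and -1.33 ± 0.29, while Igfbp5, a further binding protein named after its value was seen, rose by 0.86 ± 0.19 but changed by -0.44 with the mean of its probe sets.

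Genes of dividing cells were lower at 6 weeks. The cell cycle list held 33 genes tested, of which 22 were called lower and 1 higher (median change -1.25), and the DNA replication list 31 genes tested, of which 18 were called lower and 0 higher (median change -0.80). Cdk1 (1448314_at), the kinase that starts mitosis, read 8.96, 9.16 and 9.39 at 5 days and 6.28, 6.54 and 5.495 at 6 weeks, a change of -3.07 ± 0.58 (adjusted p 0.0004). Top2a (1454694_a_at), which untangles replicated chromosomes, read 8.68, 9.09 and 9.33 at 5 days and 5.87, 6.48 and 5.42 at 6 weeks (-3.11 ± 0.63, adjusted p 0.000741). Mki67, a widely used marker of cycling cells, read 8.505, 8.62 and 8.96 at 5 days and 5.98, 6.69 and 5.91 at 6 weeks (-2.501 ± 0.67, adjusted p 0.00606). The arrays of the 2 ages did not overlap for any of the 3, and those at 6 weeks spread more widely than those at 5 days. Aurka, a mitotic kinase, was the 1 member called higher (0.94 ± 0.32, named after its value was seen), and lost its call without replicate 1 or 2 at 5 days or replicate 3 at 6 weeks (0.70 to 0.90).

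The replication helicase gene Mcm6 read 9.59, 9.67 and 9.64 at 5 days and 7.06, 7.28 and 7.28 at 6 weeks (-2.42 ± 0.31, adjusted p 8.67e-06). The G1 cyclins fell as well, with changes of -1.77 ± 0.40 for Ccnd1 and -2.73 ± 0.28 for Ccnd3, a cyclin that differentiating muscle cells keep. The cell cycle inhibitors were 15 genes tested, of which 3 were called lower and 5 higher (median change 0.37). Cdkn1a, the inhibitor that marks cell cycle exit of myoblasts, was lower at 6 weeks (-2.06 ± 0.45, adjusted p 0.00127), and the stress-induced Gadd45g and Gadd45a were higher (2.32 ± 0.59 and 1.35 ± 0.39). Uhrf1, which brings the maintenance DNA methyltransferase to replicated DNA, fell by 2.36 ± 0.44 (adjusted p 0.000325).

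Mitotic genes share promoter elements, and the promoters of Cdk1, Top2a and Mki67 are shown because these genes moved together. The sequences are 200 bases directly upstream of the RefSeq transcription start, from a table of build GRCm38.p6, at chr10:69352913-69353112, minus strand for Cdk1, chr11:99024190-99024389, minus strand for Top2a and chr7:135716380-135716579, minus strand for Mki67, each written 5′ to 3′ in the direction of the gene. Capitals mark the CCAAT box, searched as ATTGG and its reverse complement. They also mark the cell cycle homology region, searched as TTTGAA and its reverse complement.
Cdk1: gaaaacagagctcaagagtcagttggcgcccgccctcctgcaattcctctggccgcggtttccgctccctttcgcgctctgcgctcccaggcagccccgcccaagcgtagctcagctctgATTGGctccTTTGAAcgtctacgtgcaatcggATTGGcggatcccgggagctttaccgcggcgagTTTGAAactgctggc
Top2a: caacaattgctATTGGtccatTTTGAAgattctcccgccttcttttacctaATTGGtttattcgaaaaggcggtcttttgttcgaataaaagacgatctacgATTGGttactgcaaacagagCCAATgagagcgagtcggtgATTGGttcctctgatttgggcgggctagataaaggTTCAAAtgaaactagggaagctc
Mki67: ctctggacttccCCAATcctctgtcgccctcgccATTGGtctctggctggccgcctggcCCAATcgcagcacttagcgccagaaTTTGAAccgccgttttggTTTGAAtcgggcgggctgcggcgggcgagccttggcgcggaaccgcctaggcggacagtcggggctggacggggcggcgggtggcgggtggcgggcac
Counted on both strands, ATTGG occurred 2 times in the stretch of Cdk1, 5 times in that of Top2a and 3 times in that of Mki67, and TTTGAA 2 times in each. Of the 22 cell cycle genes called lower, 16 had a promoter in the table, and over 250 upstream bases 11 of them held ATTGG, 7 held TTTGAA and 7 held both. Among 27025 genes with a promoter there, 37.5% held ATTGG, 18.3% TTTGAA and 6.45% both in at least 1 promoter, and of 32851 single promoters 33.8% held ATTGG and 15.99% TTTGAA. The letters of the CCAAT box were not particular to falling division genes. Over the same 250 bases, 8 of 10 circadian clock genes called higher with a promoter in the table held them. Those of the cell cycle homology region were held by 0 of these 10. Of 16 DNA replication genes called lower with a promoter there, 9 held the first, 2 the second and 1 both. A match is a description of these letters, not of a bound site.

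Genes of cytosolic ribosomal proteins fell by smaller amounts, whereas those of ribosome assembly did not move to 1 side. The ribosome assembly list held 41 genes tested, of which 5 were called lower and 5 higher (median change -0.02). The cytosolic ribosomal protein list held 42 genes tested, of which 30 were called lower and 0 higher (median change -0.50); these genes have near-identical processed copies, whose transcripts the probes may share. Rps19, the most reduced on the list, read 12.34, 12.39 and 12.43 at 5 days and 11.39, 11.42 and 11.44 at 6 weeks (-0.97 ± 0.12, adjusted p 6.23e-06), groups without overlap. Rpl4 and Rps6, with changes of -0.08 and -0.07, were not called. Eef1a1, the general elongation factor, fell by 0.999 ± 0.18 (adjusted p 0.00022), while its muscle form Eef1a2 changed by 0.27 ± 0.23 (adjusted p 0.367).

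Genes of myoblasts and their fusion fell. The list of satellite cell and myoblast genes held 35 genes tested, of which 22 were called lower and 1 higher (median change -0.87). Myog (1419391_at), the transcription factor of terminal muscle differentiation, read 10.45, 10.38 and 10.18 at 5 days and 6.16, 6.93 and 5.97 at 6 weeks, a 15.8-fold lower level (-3.98 ± 0.38, adjusted p 3.25e-07). Mymk, the membrane protein myomaker that carries out myoblast fusion, read 8.48, 8.497 and 8.67 at 5 days and 5.06, 6.34 and 4.81 at 6 weeks (-3.15 ± 0.57, adjusted p 0.00027), and its partner Mymx, myomixer, read 7.93, 7.93 and 7.68 at 5 days and 4.35, 4.95 and 4.12 at 6 weeks (-3.37 ± 0.55, adjusted p 8.56e-05). At 6 weeks every array of Mymx lay near the lowest possible value, while those of Mymk were more uneven, with replicate 2 the highest. Myod1, which commits cells to the myogenic lineage, fell by 1.74 ± 0.21, and Pax7, the marker of the stem cells themselves, by 1.48 ± 0.31 (named after its value was seen). Myf6, the myogenic factor of mature fibres, changed by -0.04 ± 0.27 and was not called (adjusted p 0.913), and the 1 member called higher was the hepatocyte growth factor receptor Met (1.23 ± 0.27, likewise named after the fact).

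Among muscle transcription factors the direction was mixed, in 45 genes tested, of which 13 were called lower and 7 higher (median change -0.15). Sox6, a repressor of slow fibre genes, read 9.18, 9.09 and 8.82 at 5 days and 10.89, 10.96 and 11.10 at 6 weeks and rose by 1.95 ± 0.24 (adjusted p 5.25e-06). Pitx3, a homeobox factor of developing muscle, read 7.80, 7.88 and 7.93 at 5 days and 5.99, 5.88 and 6.20 at 6 weeks and fell by 1.85 ± 0.16 (adjusted p 7.5e-08). Groups did not overlap for either gene. Regulators of splicing, which switch from fetal to adult transcript forms in striated muscle, were 27 genes tested, of which 10 were called lower and 5 higher (median change -0.41). Rbfox2 (1418245_a_at) read 9.68, 9.85 and 9.72 at 5 days and 6.27, 6.46 and 5.36 at 6 weeks (-3.72 ± 0.44, adjusted p 3.91e-06), and Ptbp1, a repressor of muscle exons, read 9.88, 9.84 and 10.02 at 5 days and 8.56, 8.36 and 7.59 at 6 weeks (-1.75 ± 0.25, adjusted p 3.13e-05). Mbnl1 and Rbfox1, which promote adult exons and were named after their values were seen, rose by 1.08 ± 0.16 and 0.95 ± 0.25, the call of Mbnl1 being lost with the mean of its probe sets (0.37).

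Exchange between related genes was not limited to the myosins. Of 39 pairs in which an early, slow or non-muscle gene was set beside its adult muscle counterpart, 35 had both genes tested. In 6 pairs the first fell and the second rose: Myh3 and Myh4, Tnnt2 and Tnnt3, Actn2 and Actn3, Ryr3 and Ryr1, Casq2 and Casq1, and Ezh2 and Ezh1. In 12 pairs only the first was called, lower, and in 9 only the second was called, higher. In 2 pairs both rose, in 1 both fell (Ccnd1 and Ccnd3), in 1 the first rose and the second fell (Actc1 and Acta1), and in 4 neither was called. The calls of Myh4, Acta1 and Actc1 were small and close to the threshold. That of Actc1 was lost without any 1 of the 6 arrays (0.46 to 0.52), and that of Myh4 without any 1 except BL10 at 5 days replicate 1 (0.55 to 0.71). That of Acta1 was lost without replicate 1 or 3 at 5 days or replicate 2 or 3 at 6 weeks (-0.18 to -0.14). Leaving out 1 array also lowered the calls over all genes, from 5699 to between 4314 and 4765. The calls of Myh4 and Acta1 were also lost with values as deposited and without the filter. All 3 were lost without the intensity trend, and that of Myh4 with the mean of its probe sets. The call of Tnnt3 (0.28) was lost with values as deposited (0.23) and without the intensity trend. In all, 19 of the 35 first genes were called lower and 17 of the second genes higher.

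Genes of calcium release and calcium storage were among these pairs. Ryr3 (1427427_at), the neonatal ryanodine receptor of the sarcoplasmic reticulum, read 9.30, 9.17 and 9.49 at 5 days and 4, 4.99 and 4.51 at 6 weeks, a 28.2-fold lower level (-4.82 ± 0.42, adjusted p 9.77e-08), with 1 of the 6-week arrays at the lowest possible value. Ryr1, the release channel of adult muscle, read 12.66, 12.42 and 12.53 at 5 days and 13.32, 13.40 and 13.37 at 6 weeks and rose by 0.83 ± 0.21 (adjusted p 0.00361), a call that reverses to -0.036 when the mean of its probe sets is used. Casq2, the cardiac and slow form of the calcium store protein calsequestrin, read 12.55, 12.59 and 12.63 at 5 days and 9.41, 8.96 and 9.29 at 6 weeks (-3.37 ± 0.35, adjusted p 8.49e-07), while the fast form Casq1 rose by 0.62 ± 0.14 (adjusted p 0.00209). For these 4 genes the arrays of the 2 ages did not overlap.

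In 4 pairs of enzymes of sugar use the muscle form rose and its partner was not called. Hk2, the insulin-responsive hexokinase, read 10.05, 10.30 and 10.22 at 5 days and 11.53, 11.38 and 11.77 at 6 weeks and rose by 1.37 ± 0.21 (adjusted p 5.04e-05), while Hk1 changed by -0.34 ± 0.18 and was not called. Pfkm rose by 0.81 ± 0.17, Pygm by 0.84 ± 0.16 and Pgam2 by 0.66 ± 0.09, and their partners Pfkl, Pygb and Pgam1 were not called, with changes of 0.05, -0.28 and -0.20. Whether the change of 1 partner differed from that of the other was not tested. Ezh2, the methyltransferase of the Polycomb complex in dividing cells, fell by 1.04 ± 0.25, and Ezh1, its counterpart in resting cells, rose by 0.77 ± 0.20, a call lost with the mean of its probe sets (0.34).

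**Figure D3:**
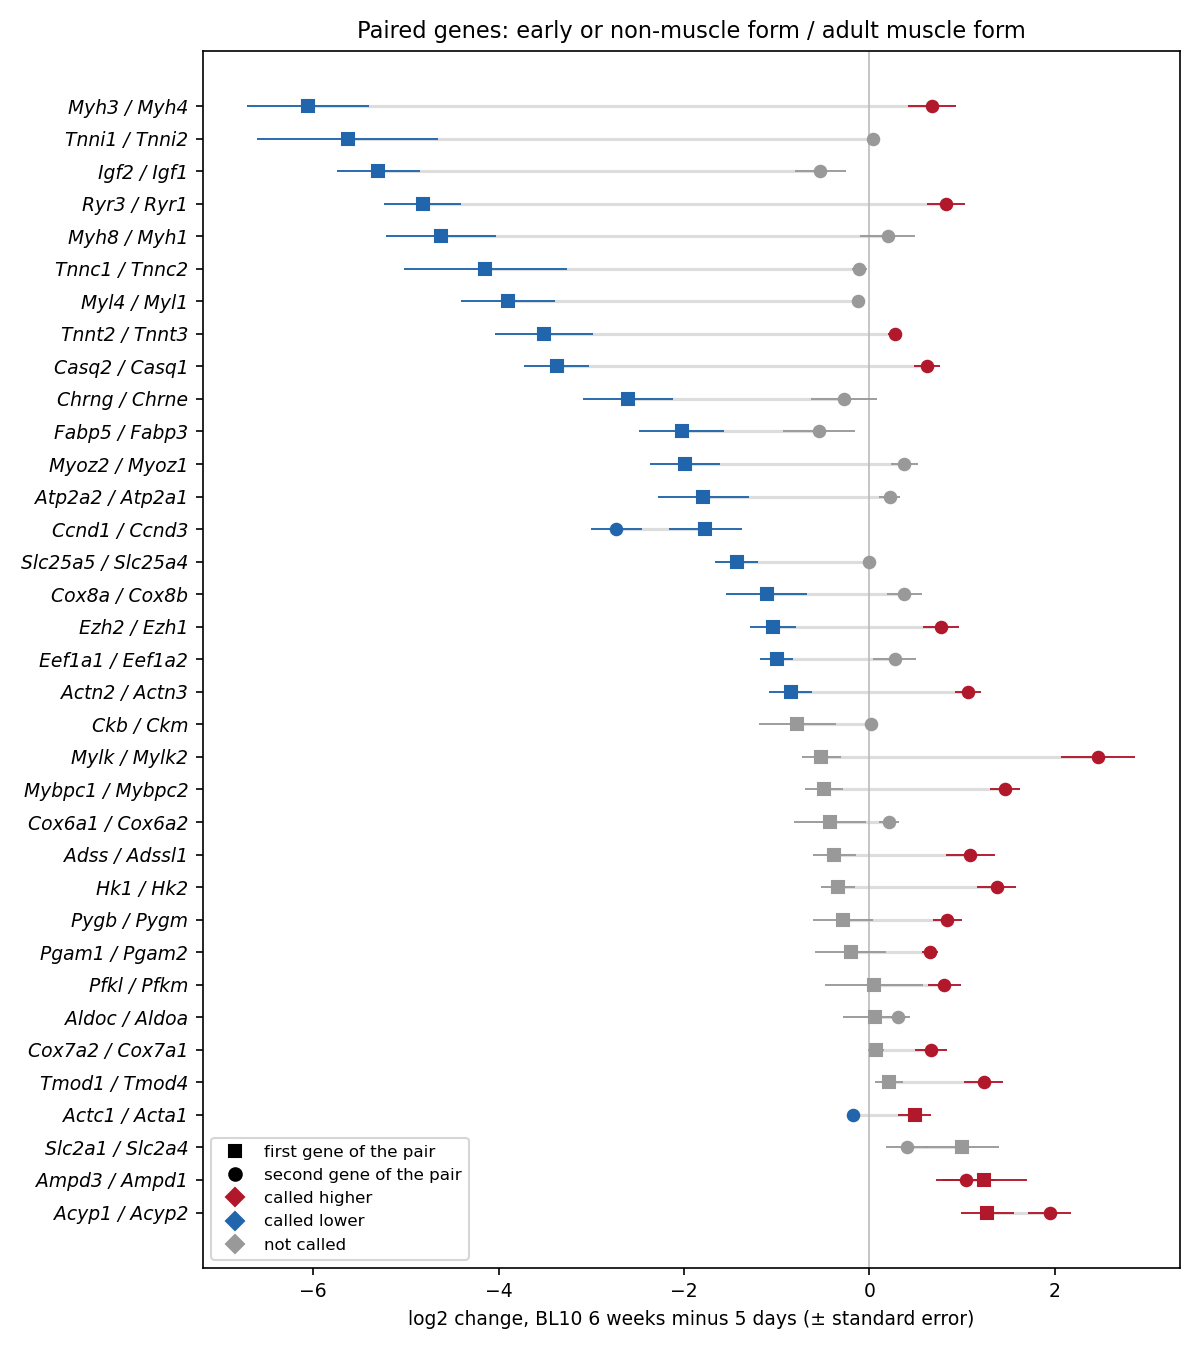
Change from 5 days to 6 weeks in BL10 quadriceps (x axis, log2 scale, error bars are standard errors) for 35 pairs of related genes (y axis), with squares for the early or non-muscle form, circles for the adult muscle form, and colour for the call. Pairs at the top lost the early form, with changes down to -6.05 for Myh3, while in the lower pairs the muscle form rose and the other did not pass the test.

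At the excitable membrane, the list of excitation and calcium genes held 32 genes tested, of which 8 were called lower and 14 higher (median change 0.40), and its median was -0.15 with the mean of probe sets. Scn4b, a beta subunit of the sodium channel, read 10.07, 10.01 and 9.91 at 5 days and 11.49, 11.52 and 11.61 at 6 weeks and rose by 1.55 ± 0.24 (adjusted p 6.3e-05). Kcng4, a modifying subunit of potassium channels and one of the 20 largest rises of all, read 4.65, 4.92 and 4.89 at 5 days and 9.08, 9.09 and 9.82 at 6 weeks (4.51 ± 0.44, adjusted p 3.37e-07). Stim1, the calcium sensor of store-operated entry, fell by 1.62 ± 0.18 (adjusted p 1.51e-06). The neuromuscular junction list held 18 genes tested, of which 9 were called lower and 0 higher (median change -0.64). Chrng, the fetal gamma subunit of the acetylcholine receptor, read 6.70, 6.92 and 6.68 at 5 days and 4.07, 4.43 and 4 at 6 weeks (-2.60 ± 0.49, adjusted p 0.000345), with 2 of the 6-week arrays at or near the lowest possible value. The alpha subunit Chrna1 read 10.71, 10.57 and 10.61 at 5 days and 8.28, 8.66 and 8.52 at 6 weeks (-2.14 ± 0.30, adjusted p 1.73e-05), and the adult epsilon subunit Chrne was not called (-0.28 ± 0.35, adjusted p 0.569).

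Around the fibre membrane, the dystrophin gene Dmd itself changed by 0.09 ± 0.47 and was not called. The list of dystrophin complex and membrane genes held 23 genes tested, of which 6 were called lower and 2 higher (median change -0.27). Sntb1, a syntrophin, read 9.65, 9.63 and 9.80 at 5 days and 7.18, 6.84 and 6.73 at 6 weeks (-2.77 ± 0.49, adjusted p 0.000222), so its arrays of the 2 ages lay far apart.

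The list of fibrillar matrix and assembly genes held 61 genes tested, of which 32 were called lower and 4 higher (median change -0.76). Fbn2 (1454830_at), the fibrillin of fetal microfibrils, read 9.48, 9.55 and 9.99 at 5 days and 5.45, 6.18 and 5.44 at 6 weeks, a 15.8-fold lower level (-3.98 ± 0.31, adjusted p 3.26e-08). Mfap2, a microfibril-associated glycoprotein, read 10.62, 10.54 and 10.73 at 5 days and 7.59, 7.79 and 7.18 at 6 weeks (-3.11 ± 0.30, adjusted p 2.89e-07). Postn, a matricellular protein of growing connective tissue, read 12.81, 12.72 and 12.99 at 5 days and 10.78, 10.78 and 9.77 at 6 weeks (-2.39 ± 0.36, adjusted p 3.98e-05). The fibrillar collagen genes Col1a1 and Col3a1, named after their values were seen, had changes of -0.45 ± 0.35 (not called, adjusted p 0.333) and -0.25 ± 0.09 (adjusted p 0.0313). The call of Col3a1 was lost without any 1 array except BL10 at 6 weeks replicate 2 (-0.26 to -0.17). For Fbn2, Mfap2 and Postn the arrays of the 2 ages did not overlap; differences between the changes of these 5 genes were not tested.

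Basement membrane genes were 20 genes tested, of which 11 were called lower and 2 higher (median change -0.70). Col18a1, the source of endostatin, fell by 2.24 ± 0.35 (adjusted p 5.46e-05), Lama4, a laminin chain of immature and vascular basement membranes, changed by -1.44 ± 0.38, and the 2 members that rose were Col4a3 (1.86 ± 0.21) and Col4a5 (1.17 ± 0.27), which form a network of type IV collagen together. Among proteases and inhibitors Mmp14, the membrane-bound collagenase, read 10.79, 10.99 and 11.04 at 5 days and 7.78, 7.91 and 7.45 at 6 weeks (-3.22 ± 0.42, adjusted p 1.03e-05), and Timp4, an inhibitor of such proteases, read 6.56, 6.40 and 6.08 at 5 days and 8.996, 9.78 and 9.87 at 6 weeks (3.20 ± 0.47, adjusted p 3.68e-05). The protease and the inhibitor moved in opposite directions, with no overlap of the arrays for either gene.

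Genes of energy supply rose in part, by small amounts in the mitochondrial lists and by larger ones in single genes of sugar use. The respiratory chain list held 56 genes tested, of which 2 were called lower and 24 higher (median change 0.25). The citric acid cycle list held 24 genes tested, of which 1 were called lower and 12 higher (median change 0.34). The glycolysis list held 18 genes tested, of which 1 were called lower and 9 higher (median change 0.35), and that of glycogen and glucose uptake 22 genes tested, of which 4 were called lower and 12 higher (median change 0.83). None of the 25 genes of fatty acid uptake and oxidation was called by limma, although 3 had an unadjusted p under 0.05. Their changes lay between -0.90 and 1.52 with a median of -0.37. In most of these genes every array at 6 weeks lay below every array at 5 days, against 25.7% of all genes tested. In fewer of them every array at 6 weeks lay above. The list is therefore uncalled rather than shown to be unchanged.

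Phka1 (1422743_at), the muscle alpha subunit of phosphorylase kinase, the enzyme that switches on glycogen breakdown, read 9.45, 9.06 and 9.23 at 5 days and 12.16, 12.43 and 12.32 at 6 weeks, an 8.29-fold higher level (3.05 ± 0.28, adjusted p 2.36e-07). Its catalytic partner Phkg1 read 9.67, 9.42 and 9.30 at 5 days and 11.24, 11.61 and 11.36 at 6 weeks (1.94 ± 0.26, adjusted p 1.48e-05), and the beta subunit Phkb rose by 1.81 ± 0.26. Pfkfb3 (1416432_at), which makes the activator of phosphofructokinase, read 5.73, 5.42 and 5.72 at 5 days and 10.85, 10.22 and 9.81 at 6 weeks, 25.5-fold higher (4.67 ± 0.51, adjusted p 1.46e-06). Every array at 6 weeks lay above every array at 5 days for Phka1, Phkg1 and Pfkfb3. Fbp2, the muscle fructose bisphosphatase and the 1 glycolysis list gene called lower, read 11.47, 11.20 and 11.18 at 5 days and 8.88, 9.25 and 9.21 at 6 weeks (-2.17 ± 0.53, adjusted p 0.00317). Idh2, the mitochondrial isocitrate dehydrogenase that makes NADPH, fell by 1.59 ± 0.26 (adjusted p 9.18e-05) and was the 1 citric acid cycle gene called lower.

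Genes of creatine synthesis fell and the gene of creatine uptake rose. Gatm (1423569_at), the first enzyme of creatine synthesis, read 10.84, 10.95 and 11.12 at 5 days and 6.68, 7.38 and 7.15 at 6 weeks, a 15-fold lower level (-3.90 ± 0.47, adjusted p 3.97e-06). Gamt, the second enzyme, read 10.55, 10.67 and 10.83 at 5 days and 8.54, 9.47 and 8.47 at 6 weeks (-1.86 ± 0.34, adjusted p 0.00027). Slc6a8, the transporter that takes creatine up from blood, read 9.45, 9.14 and 9.36 at 5 days and 10.44, 10.43 and 10.79 at 6 weeks and rose by 1.24 ± 0.24 (adjusted p 0.00053). The arrays of the 2 ages did not overlap for any of the 3 genes; the call of Slc6a8 was lost when the mean of its probe sets was used (0.18). Bdh1, the ketone body dehydrogenase, read 4.35, 4.07 and 4.49 at 5 days and 8.55, 7.63 and 9.25 at 6 weeks (4.18 ± 0.43, adjusted p 8.49e-07).

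Genes that respond to hormones were higher at 6 weeks. The glucocorticoid and sex hormone list held 15 genes tested, of which 0 were called lower and 11 higher (median change 1.72). Smox (1424268_at), spermine oxidase, an androgen-responsive enzyme of polyamine breakdown, read 7.61, 7.57 and 7.37 at 5 days and 11.23, 11.34 and 12.02 at 6 weeks, 16.1-fold higher (4.01 ± 0.37, adjusted p 2.36e-07). Fkbp5, a glucocorticoid-induced chaperone of steroid receptors, read 6.92, 7.02 and 6.89 at 5 days and 9.33, 10.001 and 10.38 at 6 weeks (2.96 ± 0.72, adjusted p 0.00318). Hsd11b1, which regenerates active glucocorticoid, read 5.89, 5.85 and 6.16 at 5 days and 8.90, 8.70 and 8.67 at 6 weeks (2.79 ± 0.45, adjusted p 8.18e-05). The arrays of the 2 ages did not overlap for Smox, Fkbp5 or Hsd11b1. The estrogen receptor Esr1 rose by 2.72 ± 0.20 (adjusted p 1.45e-08), whereas the glucocorticoid receptor Nr3c1 changed by 0.36 ± 0.25 and was not called. The 3 arrays at 5 days differed in sex as read above, and all at 6 weeks read as male, so the part of sex in these genes was not tested.

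The list of thyroid hormone handling held 13 genes tested, of which 2 were called lower and 7 higher (median change 0.86). Hr (1435950_at), the corepressor hairless and a textbook target of thyroid hormone, read 5.14, 5.30 and 4.95 at 5 days and 8.13, 8.19 and 8.84 at 6 weeks (3.26 ± 0.40, adjusted p 6.01e-06). Klf9, another target, read 10.66, 10.41 and 10.40 at 5 days and 12.51, 12.53 and 12.74 at 6 weeks (2.10 ± 0.29, adjusted p 2.02e-05), and Slc16a10, a transporter of thyroid hormone and aromatic amino acids, rose by 1.79 ± 0.29. These targets and the transporter thus rose. The receptor Thra fell, from levels of 10.39 to 10.45 at 5 days to 8.83 to 8.92 at 6 weeks (-1.55 ± 0.21, adjusted p 1.19e-05), and so did Crym, which binds the hormone in the cytosol (-1.33 ± 0.19).

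The circadian clock list held 19 genes tested, of which 1 were called lower and 11 higher (median change 1.05). Dbp (1438211_s_at), an output factor of the clock, read 6.69, 6.78 and 6.37 at 5 days and 9.35, 9.84 and 9.32 at 6 weeks (2.89 ± 0.49, adjusted p 0.00013). Per1 (1449851_at), a core repressor, read 7.54, 7.30 and 6.997 at 5 days and 9.61, 9.13 and 8.73 at 6 weeks (1.88 ± 0.49, adjusted p 0.00542), and the nuclear receptor Nr1d2 rose by 1.47 ± 0.23 (0.68 and not called with the mean of its probe sets). The 1 gene called lower was the repressor Cry1 (-0.55 ± 0.20, named after its value was seen), a call lost without any 1 array except BL10 at 6 weeks replicate 1 (-0.59 to -0.47). Arntl and Clock, the activators, had changes of 0.06 ± 0.33 and 0.52 ± 0.25 and were not called. The labels do not give the time of day at which tissue was taken, so age and sampling time cannot be told apart for this list. The promoter of Per1 is shown because it holds the E-box CACGTG (the same letters on both strands), to which clock activators bind; it is the 200 bases upstream of the RefSeq start at chr11:69098749-69098948, plus strand (GRCm38.p6), with the E-box in capitals.
Per1: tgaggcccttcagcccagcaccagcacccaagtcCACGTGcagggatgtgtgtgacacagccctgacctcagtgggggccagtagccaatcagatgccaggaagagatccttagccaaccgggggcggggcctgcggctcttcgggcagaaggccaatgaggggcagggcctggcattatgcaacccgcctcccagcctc
Of 10 clock genes called higher that had a promoter in the table, 4 held CACGTG within 250 upstream bases, against 6.86% of 27025 genes and 6.02% of 32851 promoters.

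Antigen presentation rose in every call made on the brightest probe set of a gene: the list held 37 genes tested, of which 0 were called lower and 23 higher (median change 1.11). A dimmer probe set of a list member was called at least 2-fold lower in the fit over all probe sets. H2-Aa (1438858_x_at), the alpha chain of the class II molecule that shows peptides to helper T cells, read 5.57, 5.45 and 5.43 at 5 days and 10.23, 9.73 and 9.72 at 6 weeks, 21.2-fold higher (4.41 ± 0.34, adjusted p 3.26e-08). H2-Eb1 (1417025_at), a class II beta chain, read 4.88, 5.10 and 4.63 at 5 days and 8.87, 8.79 and 8.88 at 6 weeks (3.98 ± 0.39, adjusted p 3.96e-07), and Cd74, the invariant chain that escorts class II, read 6.39, 6.21 and 6.33 at 5 days and 10.39, 10.10 and 10.04 at 6 weeks (3.87 ± 0.31, adjusted p 4.49e-08). The 3 genes lay between 4.63 and 6.39 on every array at 5 days and between 8.79 and 10.39 on every array at 6 weeks. H2-Ab1 rose by 3.44 ± 0.28, and the class I gene H2-K1 by 2.45 ± 0.49 (adjusted p 0.000627). The interferon-induced proteasome subunit Psmb8 rose by 1.22 ± 0.29, and Cxcl10 and Stat2 were not called (0.21 ± 0.58 and 0.25 ± 0.22).

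Class II genes carry a Y box in their promoters, and H2-Aa and H2-Eb1 are shown because they rose together. The sequences are 200 bases upstream of the RefSeq start (GRCm38.p6), at chr17:34287824-34288023, minus strand for H2-Aa and chr17:34305667-34305866, plus strand for H2-Eb1, with CTGATTGG (CCAATCAG on the other strand), which contains the CCAAT box letters above, in capitals.
H2-Aa: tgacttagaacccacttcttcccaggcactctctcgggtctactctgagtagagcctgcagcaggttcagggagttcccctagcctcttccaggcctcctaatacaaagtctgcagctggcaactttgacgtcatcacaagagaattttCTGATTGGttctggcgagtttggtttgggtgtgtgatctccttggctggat
H2-Eb1: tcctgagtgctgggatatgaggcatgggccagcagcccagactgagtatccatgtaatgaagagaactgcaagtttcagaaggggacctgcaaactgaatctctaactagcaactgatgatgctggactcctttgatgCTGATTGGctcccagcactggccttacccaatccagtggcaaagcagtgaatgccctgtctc
Each stretch held CTGATTGG 1 time. It occurred within 250 upstream bases in 4.43% of 27025 genes and in 3.83% of 32851 promoters.

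Markers of immune cells are given beside the rise of class II. Of 22 macrophage markers, 4 were called higher and 2 lower (median 0.39), and the list mean was 7.39, 7.35 and 7.41 at 5 days and 7.67, 7.68 and 7.62 at 6 weeks. Lyve1 and Folr2, markers of resident macrophages, rose by 1.20 ± 0.30 and 0.98 ± 0.26, while Cx3cr1, a chemokine receptor of monocytes and microglia, fell, with a change of -1.002 ± 0.27. Of 13 lymphocyte markers 3 were called higher (Ighm, Thy1 and Cd8a, the last with a change of 0.57 that fell to 0.32 and lost its call without BL10 at 5 days replicate 1, and also lost it without replicate 2 or 3 at 6 weeks, at 0.52 and 0.55). Ighm, the heavy chain of immunoglobulin M, read 6.34, 6.28 and 6.26 at 5 days and 10.38, 9.69 and 10.11 at 6 weeks (3.77 ± 0.40, adjusted p 1.14e-06), and the T cell surface gene Thy1, which fibroblasts and nerves also express, rose by 0.69 ± 0.19. The B cell surface genes Ms4a1 and Cd79a, the second named after its value was seen, had changes of 0.07 ± 0.42 and -0.57 ± 0.38 and were not called. The part of these cells in the class II change was not tested.

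Adipocyte markers rose in part. The list held 16 genes tested, of which 0 were called lower and 8 higher (median change 1.74), and its mean was 8.16, 7.90 and 7.99 at 5 days and 10.63, 9.90 and 9.07 at 6 weeks. Scd1, the desaturase of fat synthesis, read 8.01, 7.75 and 7.69 at 5 days and 13.45, 12.85 and 11.71 at 6 weeks (4.85 ± 0.54, adjusted p 1.96e-06), and Retn, resistin, read 5.78, 5.01 and 5.96 at 5 days and 9.36, 9.21 and 7.87 at 6 weeks (3.23 ± 0.74, adjusted p 0.00197). The 6-week arrays were uneven in these genes, with replicate 1 highest and replicate 3 lowest in the list mean and in Scd1. Fabp4 and Lpl, which other cells also express, had changes of 0.25 ± 0.27 and 0.33 ± 0.19. No brown adipocyte marker was called by limma (0 of 9, 2 with an unadjusted p under 0.05), with a median of 0.44.

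Several of the largest rises of all genes lay beside these markers. Retnla (1449015_at), a secreted protein of macrophages and adipose tissue, was at the lowest possible value on 2 of the 5-day arrays and read 4.20, 4 and 4 at 5 days and 10.70, 10.53 and 10.47 at 6 weeks (6.504 ± 0.39, adjusted p 1.5e-09). Ces1d, a lipase of adipose tissue and liver, read 4.96, 4.32 and 4.30 at 5 days and 10.08, 9.20 and 8.19 at 6 weeks (4.63 ± 1.05, adjusted p 0.00181), with the same order of the 6-week arrays as the adipocyte list. Cyp2e1, the ethanol-inducible cytochrome, read 5.17, 4.62 and 4.91 at 5 days and 11.68, 11.78 and 10.67 at 6 weeks. Replicate 3 was again the lowest at 6 weeks, while replicate 2 lay slightly above replicate 1. The part of fat tissue in these genes was not tested. The antioxidant and detoxification list held 38 genes tested, of which 2 were called lower and 19 higher (median change 0.65). Aldh1a1, a retinaldehyde dehydrogenase, read 7.59, 7.35 and 6.88 at 5 days and 10.53, 10.55 and 10.95 at 6 weeks (3.41 ± 0.49, adjusted p 2.52e-05), and Nqo1, a quinone reductase, read 5.37, 5.45 and 5.58 at 5 days and 7.95, 8.09 and 8.17 at 6 weeks (2.60 ± 0.30, adjusted p 2.35e-06); for both the 6-week arrays lay close together.

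Chac1 (1451382_at), an enzyme that breaks down glutathione in stressed cells, read 5.29, 5.36 and 5.31 at 5 days and 10.62, 11.19 and 11.003 at 6 weeks (5.62 ± 0.67, adjusted p 3.98e-06), a 49-fold rise with arrays close together at both ages. The atrophy and autophagy list held 28 genes tested, of which 3 were called lower and 14 higher (median change 0.61). Fbxo32, the muscle ubiquitin ligase atrogin-1, read 6.93, 6.60 and 6.92 at 5 days and 9.65, 9.75 and 9.90 at 6 weeks (2.95 ± 0.66, adjusted p 0.00166), and Ddit4, an inhibitor of the growth kinase mTOR, read 6.70, 6.77 and 6.89 at 5 days and 10.76, 9.46 and 9.11 at 6 weeks (2.99 ± 0.70, adjusted p 0.0022). Asb15, a ubiquitin ligase subunit of striated muscle, read 5.09, 5.73 and 5.18 at 5 days and 9.69, 9.63 and 9.64 at 6 weeks (4.32 ± 0.42, adjusted p 3.35e-07). The proteasome list held 36 genes tested, of which 4 were called lower and 4 higher (median change 0.08).

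Other resident cells changed in part. Endothelial markers were 21 genes tested, of which 10 were called lower and 1 higher (median change -0.57), the higher one being Flt1, a receptor of vascular growth factor (0.61 ± 0.19, named after its value was seen; its call was lost without replicate 2 at 5 days, 0.53, or replicate 3 at 6 weeks, 0.48). Apln, the ligand made by sprouting endothelium, fell by 2.99 ± 0.54 (adjusted p 0.000247) and Cldn5, a tight junction protein, by 1.77 ± 0.49 (adjusted p 0.00793). Mast cell markers were 9 genes tested, of which 5 were called lower and 1 higher (median change -1.53), the higher one being the transcription factor Gata2 (1.16 ± 0.20), and the protease Cma1 read 9.10, 8.99 and 9.23 at 5 days and 6.82, 6.81 and 6.67 at 6 weeks (-2.34 ± 0.31, adjusted p 1.24e-05). Schwann cell markers were 14 genes tested, of which 5 were called lower and 0 higher (median change -0.48), and markers of fibro-adipogenic progenitors were 15 genes tested, of which 4 were called lower and 4 higher (median change -0.08). Erythroid, neutrophil, cartilage and bone, and skin lists had medians of 0.16, -0.16, 0.17 and -0.05, but single members were called. Of 14 erythroid markers 4 were called higher and 2 lower, and of 10 skin markers 1 higher and 3 lower. Of 11 neutrophil markers and of 12 cartilage and bone markers 1 each was called higher and 0 lower. Of 15 pericyte and smooth muscle markers 5 were called lower and 1 higher (median -0.27), and of 13 tendon markers 2 lower and 3 higher (median 0.67). On the liver list Cyp2e1 and the urinary protein gene Mup3, listed at the lowest possible value on all 5-day arrays, were called higher, and the albumin gene Alb, named after its value was seen, changed by 0.13 ± 0.65 and was not called.

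When the change took place was read from the BL10 arrays at 2 and 3 weeks, for the 2367 genes that were called, changed at least 2-fold and did not overlap. Ages are compared here without a test, because the 5-day and 6-week arrays chose the genes. Of 1355 higher genes 43.8% had at least 50% of their change by 2 weeks, 29.4% only by 3 weeks and 26.8% later. Of 1012 lower genes the shares were 41.4%, 42.6% and 16.01%. At 3 weeks the dystrophin level of BL10 replicate 2 was 8.02, below the arrays labelled mdx at 5 days (8.06 to 8.48), against 8.88 and 10.13 in the other 2. Without it the later share was 20.7% for higher and 11.9% for lower genes.

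The groups of genes differed in timing. Division genes kept most of their level to 2 weeks: 14 of 17 cell cycle and 12 of 13 DNA replication genes passed 50% between 2 and 3 weeks, and Cdk1 had 12.6% of its change at 2 weeks and 70.6% at 3 weeks. Mymk followed that course (-1.81% of its change at 2 weeks and 66.1% at 3 weeks), whereas Myog had 6.28% of its change at 2 weeks and 36.5% at 3 weeks. Single-gene shares at 3 weeks, here and below, include BL10 replicate 2 of that age and may turn on it. Without that array the median share at 3 weeks of the falling cell cycle genes went from 70.3% to 94.0%. For the falling satellite cell and myoblast genes it went from 65.3% to 88.0%. Fibrillar matrix genes were early, 13 of 22 by 2 weeks, with 54.1% of its change at 2 weeks and 73.3% at 3 weeks for Fbn2, and so were all 5 mast cell markers. Ryr3 had 54.9% of its change at 2 weeks and 75.3% at 3 weeks, and Casq2 47.3% of its change at 2 weeks and 57.8% at 3 weeks.

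Of the rises, Phka1 had 35.5% of its change at 2 weeks and 81.9% at 3 weeks, and 5 of 8 glycogen genes passed 50% between those ages. On the clock list 5 of 9 genes passed 50% only after 3 weeks, and 4 of 9 without BL10 at 3 weeks replicate 2, when the median share present at 3 weeks went from 44.7% to 66.8%. On the antigen presentation list the numbers were 9 and 7 of 18, and the median share went from 45.9% to 56.4%. Whether these lists changed late therefore turns on that array. Smox had 5.62% of its change at 2 weeks and 35.9% at 3 weeks, H2-Aa 37.1% of its change at 2 weeks and 54.5% at 3 weeks, and Kcng4 15.7% of its change at 2 weeks and 27.8% at 3 weeks. Hr had 59.6% of its change at 2 weeks and 59.1% at 3 weeks. Of 6 slow sarcomere genes that fell, 5 passed 50% after 3 weeks, and 3 without that array, with a median share at 3 weeks of 32.3% and 44.01%.

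**Figure D4:**
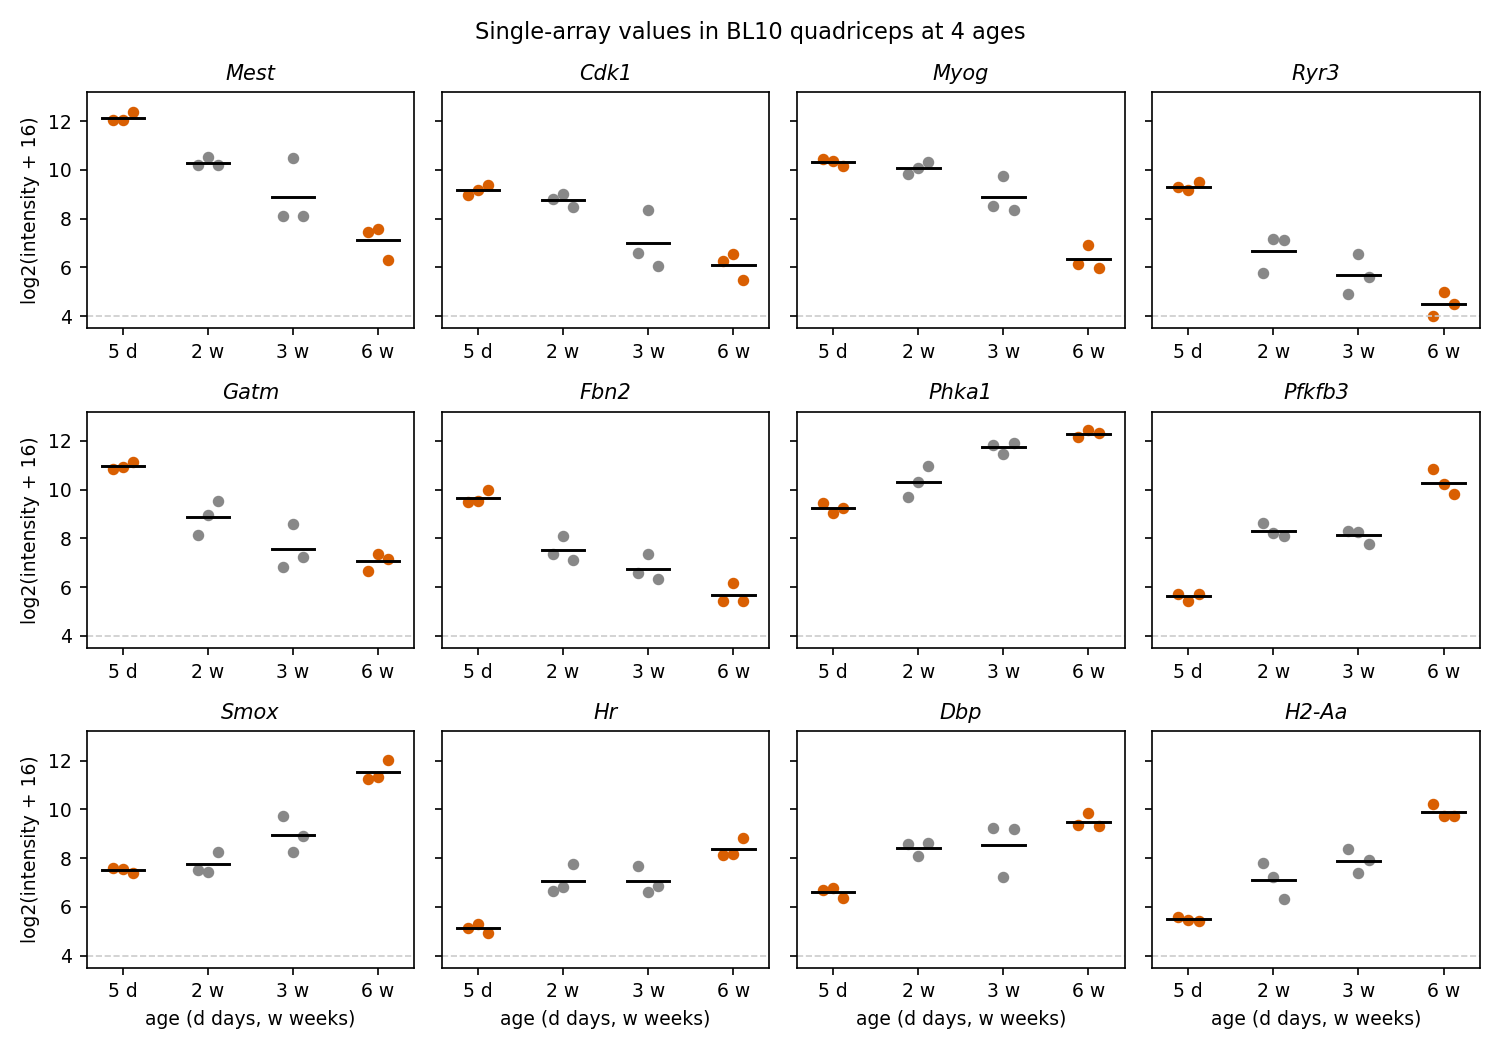
Single-array levels (y axis, log2(intensity + 16)) of 12 genes in BL10 quadriceps at 5 days, 2 weeks, 3 weeks and 6 weeks (x axis, evenly spaced, not to scale), with 3 arrays an age, bars for means, orange for the 2 ages compared and a dashed line at the lowest possible value, 4. Cdk1 and Myog were near their 5-day level at 2 weeks, and Ryr3 and Fbn2 were already low. By the means of all 3 arrays Smox rose mainly after 3 weeks.

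**Figure D5:**
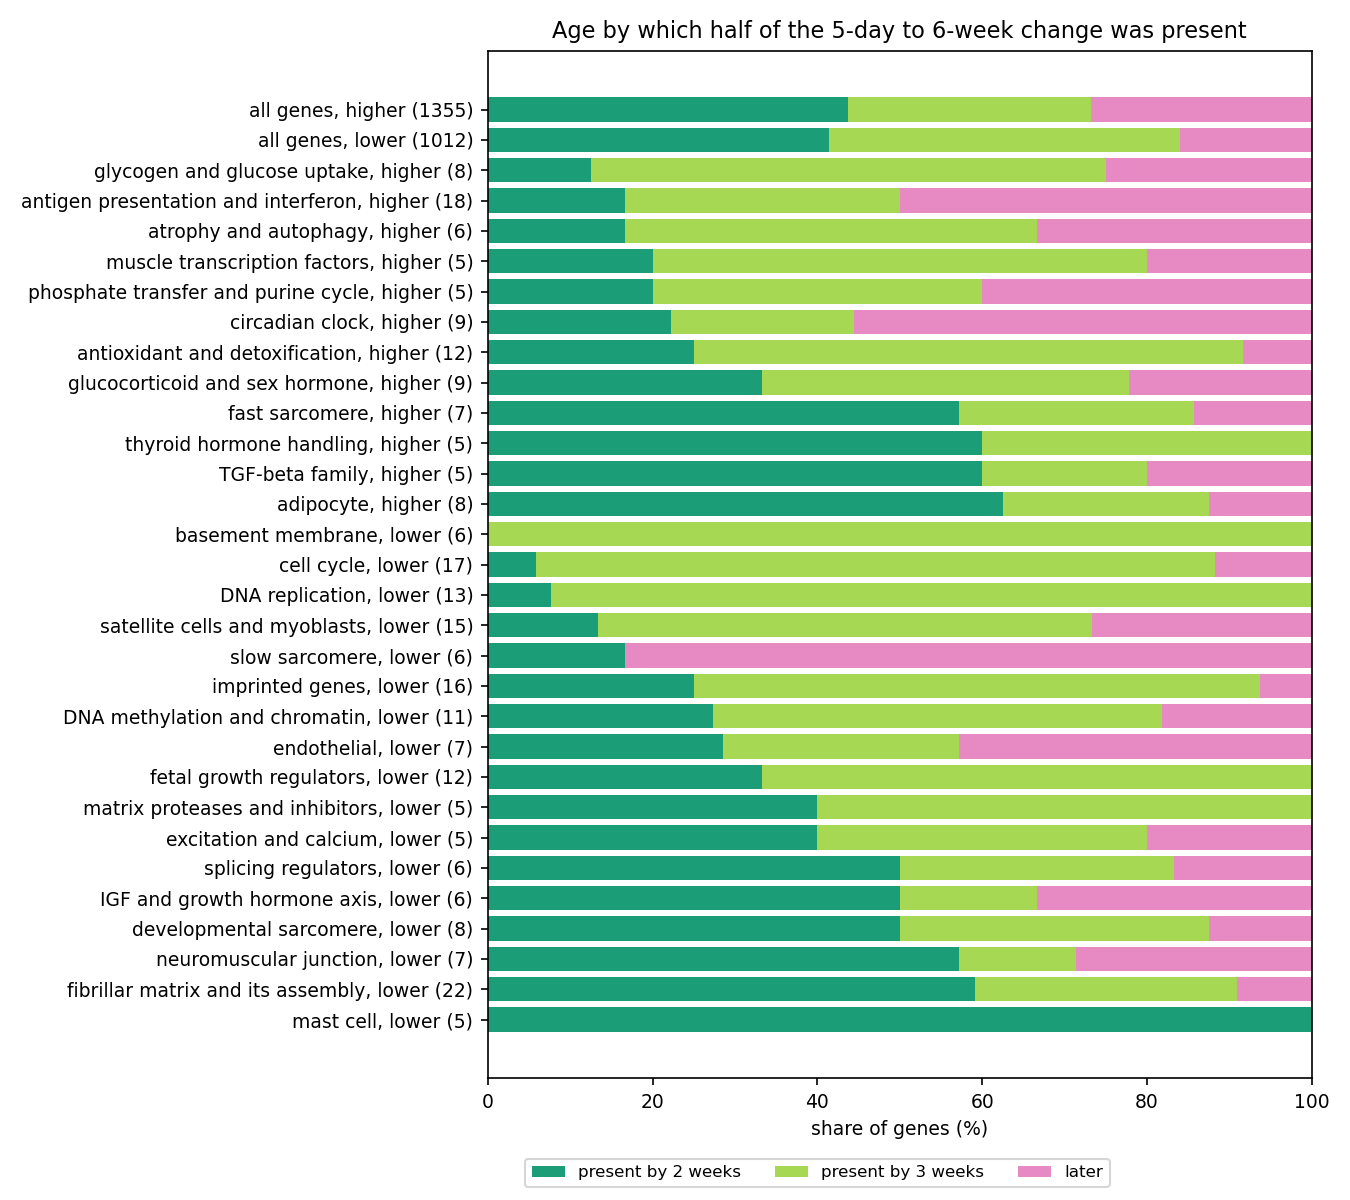
Share of genes (x axis, percent) whose 5-day to 6-week change was at least 50% present by 2 weeks, by 3 weeks or later, for each gene list with 5 or more such genes in one direction (y axis, number of genes in brackets) and for all such genes. Mast cell, fibrillar matrix and adipocyte genes changed early and division genes between 2 and 3 weeks; 5 of 6 slow sarcomere and 5 of 9 clock genes are drawn as late, numbers that were 3 and 4 without BL10 at 3 weeks replicate 2.

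The mdx arrays at 5 days and 6 weeks give the change between the same ages in other samples, which share no array with the BL10 comparison. The labels carry a limit: Dmd read 9.84, 9.99 and 10.04 on the arrays labelled mdx at 6 weeks, as high as in BL10. Of the 1362 genes called at least 2-fold higher in BL10, 98.5% had a change above 0 in the arrays labelled mdx and 71.9% a change of at least 1 unit. Of the 1014 lower genes, 96.9% had a change below 0 and 65.2% one of at least 1 unit. Over all genes with a BL10 change above 0 the share with the same sign was 82.5%, and 18.8% changed by at least 1 unit that way. Over all genes with a BL10 change below 0 these shares were 79.5% and 17.3%. For Mest the change was -3.92 in mdx against -5.04 in BL10, for Ryr3 -3.78 against -4.82, for Smox 4.55 against 4.01 and for H2-Aa 3.87 against 4.41.

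The change with age differed between the labelled strains for 36 of 15000 genes (0.24%), 22 of them (0.147% of genes) with a more positive and 14 (0.0933%) with a more negative change in mdx (limma interaction contrast; 1463 genes at an unadjusted p under 0.05). The count varied with single arrays. Without BL10 at 5 days replicate 1, 2 or 3 it was 5, 4 and 6, and without BL10 at 6 weeks replicate 1, 2 or 3 it was 8, 9 and 10. Without mdx at 5 days replicate 1, 2 or 3 it was 204, 10 and 41, and without mdx at 6 weeks replicate 1, 2 or 3 it was 1, 5 and 13. Among these genes were Myh4, the myosin of the fastest fibres, which rose by 0.68 in BL10 and changed by 2.85 in mdx, and Rpl3l, the muscle form of a ribosomal protein (1.27 and 3.40).

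Some genes had probe sets that moved apart. Of 6847 genes with 2 or more probe sets tested, 52 had one called at least 2-fold higher and another called at least 2-fold lower. The widest gap was in Zap70, a kinase of T cells, where 1440178_x_at fell from 10.66, 10.61 and 10.68 to 4.98, 4.59 and 4.52, and 1439749_at rose from 6.85, 7.40 and 7.04 to 8.68, 8.92 and 8.34. In Gsk3b, a kinase of glycogen synthase, 1437001_at fell by 2.15 and 1434439_at rose by 1.55. In Vcan, the proteoglycan versican, 3 probe sets fell, with changes of -1.81, -1.87 and -2.46, and 1447586_at, dim at 5 days, rose by 1.29. In Top2a the brighter probe set fell as described, and the probe set 1427724_at, between 4.22 and 5.19 at 5 days, rose by 1.26. The table of sequences used here does not hold these probes, so which transcript forms they match was not examined.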

How the data were processed

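Total RNA of quadriceps was measured on 24 Affymetrix mouse arrays in 8 groups of 3. Each deposited file gives 1 intensity per probe set, linear in scale, which the authors made with PLIER per the submitters' processing notes, which give no version or settings; between 2.52% and 5.82% of the values of each BL10 array at 5 days or 6 weeks lay below 0. Control probe sets (64 of 45101) were set aside. Arrays were quantile normalized, values below 0 set to 0, 16 added and log2 taken. Probe sets with 1 symbol (34945; 932 had several and 9160 none) represented 18193 genes by the probe set of highest mean; 15000 genes lay above the 40th percentile of an array on at least 3 arrays. The number of arrays limits the precision (median standard error 0.225).

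Means of the 8 groups were estimated together by limma (3.58.1, in R 4.3.3), using every array and an intensity trend (16 residual degrees of freedom); p-values are two-sided and Benjamini-Hochberg adjusted over 15000 genes. The interaction contrast and the fit over all 32990 probe sets used the same design. Named genes are the 20 highest and 20 lowest changes, up to 6 called and 2 uncalled members of each of 58 lists, all pairs, up to 10 genes of the strain contrast, up to 6 with probe sets moved apart and up to 6 per timing class, with exceptions marked in the text. The members and lists were chosen with earlier results of these data known. On 5 simulated draws of this comparison over 15000 genes, a log2 shift of 1 was recovered in 53% to 74% of 100 genes and one of 2 in 92% to 99% of 100, and 4 to 15 unshifted genes were called. Only those genes were shifted in a draw, far fewer than the 5699 called in the data, and all groups had the same spread. These shares and counts therefore do not carry over directly to the data. Alternatives were other scalings, added constants, filters, probe set rules, fits and leaving out arrays. Promoter sequences are from RefSeq (GRCm38.p6). Plots used matplotlib 3.10.9 (Python 3.11.15).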

Additional observations from a re-analysis of the deposited data

Results flagged for a closer look

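In 12 genes named in the text the change from 5 days to 6 weeks differed between the arrays labelled mdx and those labelled BL10, by the interaction contrast of the limma fit (adjusted p under 0.05). The differences below are the change in mdx minus the change in BL10, with the standard error. The arrays labelled mdx at 6 weeks have Dmd at the BL10 level, so these are differences between labelled groups. No explanation was tested.

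Positive differences were those of Erdr1 (3.89 ± 0.82), Aqp4, a water channel of the fibre membrane (3.17 ± 0.45), Zfp385a (3.02 ± 0.58), Slc16a6, a monocarboxylate transporter (2.62 ± 0.51), Col15a1, a basement membrane collagen (2.51 ± 0.53), Myh4 (2.17 ± 0.37) and Rpl3l (2.14 ± 0.33). Negative differences were those of Mss51, a mitochondrial protein of skeletal muscle (-3.66 ± 0.72), Adh1, an alcohol dehydrogenase (-2.70 ± 0.44), Hdc, the histamine-forming decarboxylase (-2.64 ± 0.53), Zic1, a zinc finger factor (-2.56 ± 0.48), and Egfbp2, a kallikrein (-2.33 ± 0.39). Aqp4 read 11.03, 10.94 and 10.96 in BL10 and 9.61, 7.73 and 8.32 in mdx at 5 days, and 10.19, 10.16 and 10.48 in BL10 and 10.96, 11.14 and 10.97 in mdx at 6 weeks. In Mss51 and Zic1 the means of the 2 labelled strains lay further apart at 6 weeks (8.74 in BL10 and 6.16 in mdx for Mss51, 6.55 and 4.27 for Zic1) than at 5 days (5.70 and 6.78, 5.65 and 5.93).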

How the results depend on the processing

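The direction of the called genes named in the text held under the alternatives run, except that with the mean of all probe sets of a gene in place of the brightest the change was -0.036 for Ryr1, -0.20 for Trappc9, -0.44 for Igfbp5, -0.52 for Gsk3b and -1.38 for Zap70, the last 2 being genes whose probe sets disagree. Against 5699 called genes, 12486 were called over all probe sets (more features tested), 9217 with estimated array weights and 3582 at an adjusted p under 0.01. With the 6 arrays of the comparison alone 8171 genes were called. Called changes of at least 2-fold numbered 1416 with a constant of 64 and 5658 over all probe sets. The strain contrast gave 20 with a constant of 64, 384 with array weights and 1 at an adjusted p under 0.01. Genes with probe sets moved apart numbered 98 with a constant of 1 and 7 with a constant of 64. Leaving out 1 array at a time gave 4314 to 4765 called genes, 2178 to 2406 of at least 2-fold, 1 to 204 in the strain contrast and 42 to 61 with probe sets moved apart. With the replicate number as a block, 5927 genes were called, 2407 of at least 2-fold, and 50 in the strain contrast; the samples share only a number. Of the called genes 59.9% were higher, against 52.5% without further normalization, 66.0% after centring on medians, 54.4% with the mean of probe sets and 49.98% over all probe sets (6240 higher, 6246 lower). Under the first 2 of these scalings the median of all genes moved to 0.03 and 0.17. Genes near the lowest possible value have folds that depend on the added constant.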

Other observations

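Large falls included many genes of the X chromosome. Of the genes tested 3.13% are X-linked by the gene table, against 4.77% (109 of 2285) of all those called lower. The share was 12.9% (26 of 202) of those called at least 4-fold lower and 28.0% (7 of 25) of those at least 16-fold lower. Of the 209 called at least 4-fold higher 1.44% (3) are X-linked. The X-linked genes called lower include Xist, which read 11.65, 6.58 and 5.15 at 5 days and 4.97 to 5.43 at 6 weeks. Its call was lost without BL10 at 5 days replicate 1, without any 1 array at 6 weeks, and with the 6 arrays of the comparison alone. Agtr2, the fetal angiotensin receptor, read 10.18, 10.16 and 10.33 at 5 days and 4.73, 4.44 and 4.44 at 6 weeks (-5.69 ± 0.50, adjusted p 1.25e-07). Igsf1 read 10.80, 11.12 and 10.94 at 5 days and 5.98, 5.96 and 5.28 at 6 weeks, and Prr32 read 11.36, 11.09 and 11.40 at 5 days and 4.31, 4.35 and 4.42 at 6 weeks. The potassium channel subunit gene Kcne1l and the kinase gene Nrk changed by -6.40 ± 0.49 and -5.85 ± 0.42. The array at 5 days that reads as female was not the highest of its age for Agtr2, Igsf1, Prr32 or Nrk. For Kcne1l it read 11.80 against 11.72 and 11.71, and for Xist it was far the highest. The other X-linked genes were not compared in this way, and the part of sex in the X-linked falls was not tested.

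Limb patterning genes moved little: of 31 Hox and related genes tested, 3 were called lower and 2 higher, with a median of 0.07. In the TGF-beta family 7 of 32 were lower and 5 higher; Acvr1b, an activin receptor, rose by 2.21 ± 0.26 and Gdf10 by 1.79 ± 0.26, and the latent TGF-beta binding protein Ltbp4 fell by 1.43 ± 0.40.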
